A study of Macaca mulatta with 64 samples.

Results

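Gene expression in the posterior cingulate cortex of the rhesus macaque was compared with that in the parietal cortex. The members are the 8 posterior cingulate and the 8 parietal libraries, 16 of 64 libraries in all, chosen by the region their labels give. The other 48 libraries came from 6 further brain regions. Each region was sampled at 1, 4, 10 and 20 years of age in females and males, with 1 library for each age and sex, so each of these 8 age and sex combinations (an animal set) gave 1 library per region. The protocols in the labels describe 16 healthy, untreated animals, 2 for each age and sex. They do not say if 1 library holds RNA of 1 animal or of both. The posterior cingulate samples were taken at Brodmann area 23 and the parietal samples at the middle of the sylvian fissure, and polyadenylated RNA was sequenced from the tissue in bulk.

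The posterior cingulate cortex lies on the medial wall of the hemisphere, is densely connected with the hippocampal formation, the thalamus and other association areas, and belongs to the network that is active at rest. Parietal cortex combines somatosensory, visual and auditory signals and guides attention and movement. Both are neocortex with the same broad cell types, in which glutamatergic projection neurons in layers are mixed with inhibitory interneurons, glia and vessels. Areas of this kind differ mainly in the thickness and cell makeup of layers and in graded expression of receptors, channels and adhesion molecules.

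Levels are given in RPKM, reads scaled to gene length and to the library's total, as the authors deposited them. Differences are posterior cingulate minus parietal on the log2(RPKM + 1) scale. The standard error (SE) is limma's, from the 8 animal sets and moderated by the spread of other genes of like level. Adjusted p-values are limma's with Benjamini-Hochberg adjustment over all 11179 genes kept. A gene is called where the adjusted p was under 0.05. The scale makes differences of low genes smaller than the ratio of their RPKM. Since tissue was sequenced in bulk, fewer cells of a type and less RNA per cell cannot be told apart.

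All 16 libraries carried markers of cortical projection neurons. SLC17A7, the vesicular glutamate transporter 1, ran from 90.9 to 181 RPKM and NRGN, a postsynaptic calmodulin-binding protein, from 960 to 2222 RPKM, while GABRA6, the receptor subunit of cerebellar granule cells, reached at most 0.08 RPKM. A value of 0 is handled as a listing and not as a measured absence. Total RPKM was 405484 to 489987 in the posterior cingulate and 354924 to 464198 in the parietal libraries, higher in the first in 8 of 8 animal sets. Read counts were not used here. The RPKM worth of 1 read was sought in 640 copies of the U6 small nuclear RNA, and 51.1% to 70.6% of their low values fell within 0.006 RPKM of a multiple of some step. The best step was 0.079 to 0.095 RPKM in the posterior cingulate and 0.11 to 0.1725 RPKM in the parietal libraries. A smaller step means more reads where it is the worth of 1 read. It was picked from many candidate steps on 65 to 97 low values per library, so it may be a multiple of that worth. The 100 highest genes took 59.8% to 65.8% of the total in the posterior cingulate and 54.6% to 60.8% in the parietal libraries, again higher in 8 of 8 sets (two-sided exact sign-flip permutation test, p = 0.0078, the smallest that 8 sets allow). The best step and the share of the highest genes thus moved with region. Whether depth itself differed, and the part of either in the differences below, was not tested.

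Differences between the regions were many and mostly small. Of 11179 genes, 2306 (20.6%) were called, with 461 (4.12%) higher and 1845 (16.5%) lower in posterior cingulate cortex, against a median difference of -0.06 over all genes. An absolute difference of at least 0.5 was reached by 131 called genes, 102 of them lower, and one of at least 1 by 11 genes (0.0984%), 10 of them lower (0.0895%). The split by direction depended on scaling. After scaling each library by its median ratio to the others, 1134 genes were higher and 907 lower, and after quantile normalization 991 and 944. Of the 2306 calls, 1368 were shared in direction with median-ratio scaling and 1381 with quantile normalization, and no gene was called in opposite directions. A total of 1148 called genes moved the same way in all 8 sets, 231 higher and 917 lower. Without the animal set as a block, 458 genes were called, and without the 1-year males 1500, the 10-year females 1410 and the 10-year males 1334.

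**Figure D1:**
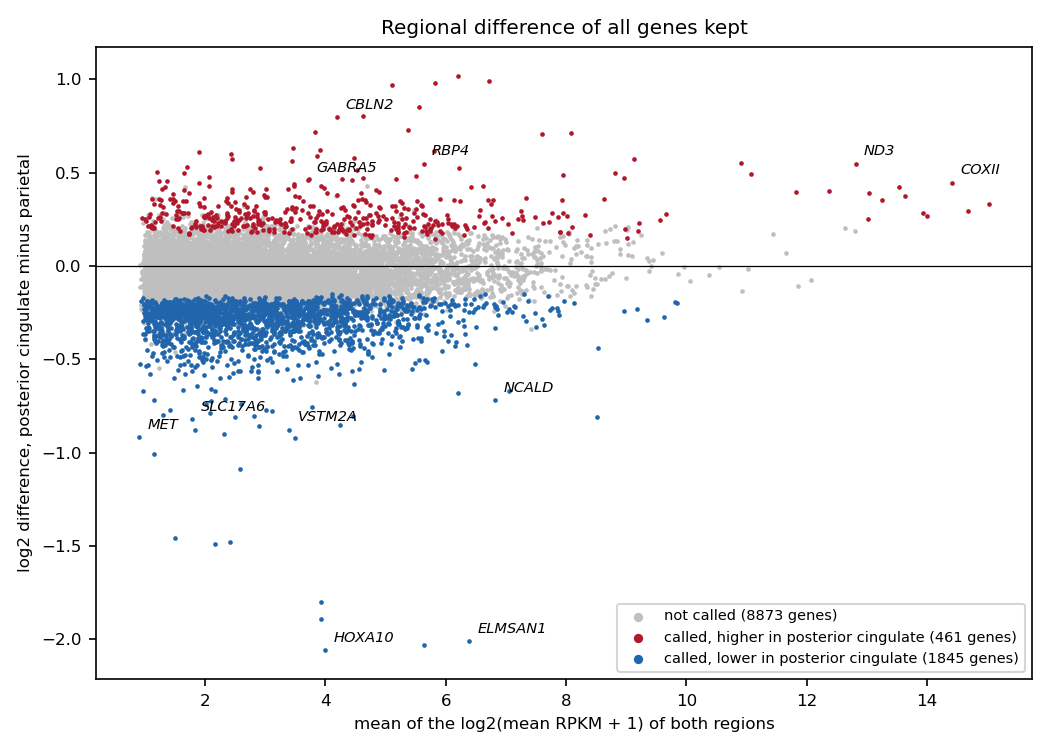
Each point is 1 of the 11179 genes, with the mean level of both regions on the x axis (log2 of RPKM + 1) and the log2 difference, posterior cingulate minus parietal, on the y axis. Red and blue points are the 461 higher and 1845 lower genes with adjusted p under 0.05, and few of them lie beyond 1 or -1.

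The largest rise among the genes named by rule, on the log2 scale, was that of CBLN2, a cerebellin that is secreted at synapses and binds neurexins. Its level was 17.1, 22.2 and 29.7 RPKM (lowest, median and highest) in the posterior cingulate libraries and 9.31, 12.9 and 16.5 RPKM in the parietal libraries. The groups did not overlap, and the posterior cingulate library was higher in 8 of 8 sets. The difference was 0.80 ± 0.09 (SE, n = 8 sets; adjusted p = 7.7e-05). In the 8 prefrontal libraries CBLN2 ran from 19.8 to 25.7 RPKM, a range that lies within that of the posterior cingulate.

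CBLN2 belonged to a list of 7 genes described as enriched in association cortex of macaques, whose members split. CBLN2, RBP4 and PNMA5 were higher and MET and CRYM lower in posterior cingulate cortex, and the median of the list was 0.00 beside -0.06 over all genes. Among all genes 4.12% were called higher and 16.5% lower. RBP4, the carrier protein of retinol, was at 46.7, 59.3 and 72.8 RPKM in the posterior cingulate and 26.3, 39.0 and 59.8 RPKM in the parietal libraries. Its groups overlapped through 1 parietal library, and the difference was 0.55 ± 0.09 (adjusted p = 0.00093, higher in 7 of 8 sets). PNMA5, of the paraneoplastic antigen family, differed by 0.31 ± 0.10 (adjusted p = 0.048), a call that was lost on leaving out any set other than those of 1 year (0.23 to 0.39, adjusted p up to 0.12).

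MET, the receptor of hepatocyte growth factor and a gene of the development of cortical circuits, stood at the other end of that list. Its level was 0.22, 0.365 and 0.47 RPKM in the posterior cingulate libraries and 1.09, 1.47 and 2.38 RPKM in the parietal libraries. Every parietal library was above every posterior cingulate library, with a difference of -0.92 ± 0.08 (adjusted p = 6.7e-06). Genes were kept with at least 1 RPKM in 8 or more of the 16 libraries, and MET passed through the parietal libraries alone. Its lack of overlap was therefore a condition of being kept and adds nothing to the difference. Prefrontal libraries ran from 0.33 to 0.98 RPKM, below all parietal libraries. CRYM, a thyroid hormone binding protein, was 19.4, 30.6 and 47.2 RPKM in the posterior cingulate and 31.7, 43.5 and 52.5 RPKM in the parietal libraries. The ranges overlapped while all 8 sets had the lower value in the posterior cingulate, by -0.43 ± 0.08 (adjusted p = 0.002). Of 5 kept genes described as enriched in primary sensory cortex of macaques, FSTL1, a secreted follistatin-like protein, was lower (-0.31 ± 0.08, adjusted p = 0.018, and at most 0.051 without the 1-year or the 10-year males), and none was higher. Under quantile normalization that call was lost, and 16.5% of all genes were called lower in the deposited values.

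**Figure D2:**
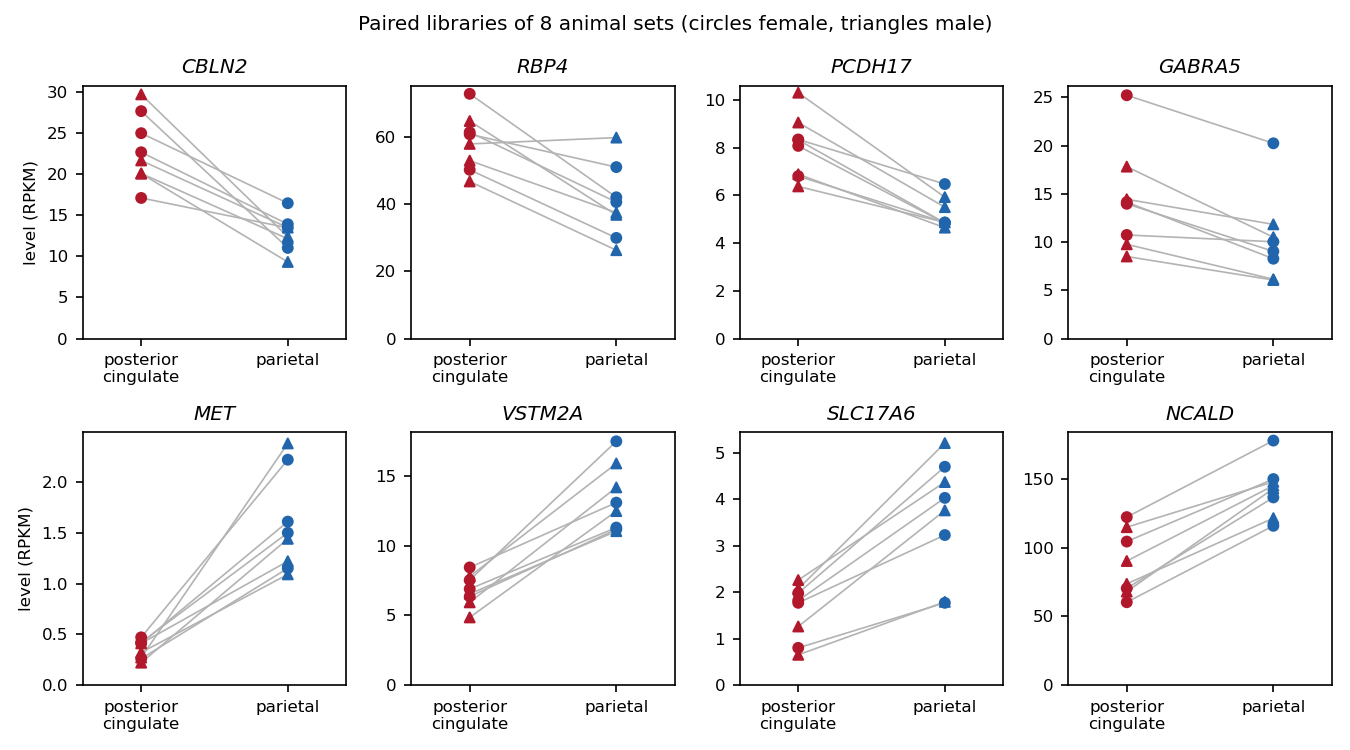
Level in RPKM of 8 genes in the posterior cingulate (red) and the parietal library (blue) of each animal set, joined by a line, with circles for females and triangles for males. CBLN2, RBP4, PCDH17 and GABRA5 are higher in posterior cingulate cortex and MET, VSTM2A, SLC17A6 and NCALD lower. The groups of CBLN2, MET and VSTM2A do not overlap, which for MET was a condition of passing the filter.

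Other named genes with the largest rises that were alike in all 8 sets had differences between 0.43 and 0.62. PCDH17, a protocadherin of cell adhesion, was 6.38, 8.20 and 10.3 RPKM against 4.65, 4.87 and 6.48 RPKM in the parietal libraries. The lowest posterior cingulate library was just below the highest parietal library, and the difference was 0.52 ± 0.06 (adjusted p = 0.00012). CNIH2, an auxiliary subunit of AMPA-type glutamate receptors, differed by 0.58 ± 0.06 (adjusted p = 5.6e-05), TPBG, a leucine-rich repeat glycoprotein, by 0.61 ± 0.09 and FKBP1B, which binds the ryanodine receptor, by 0.46 ± 0.08. GPR26, an orphan G protein-coupled receptor, MEIS3, a homeobox transcription factor, CTXN3, of the cortexin family, and SNORD99, a small nucleolar RNA, were higher by 0.47, 0.51, 0.57 and 0.60. The 1 gene higher by at least 1 has no name in the sources used here. These calls of named genes held under both other scalings.

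Several genes of neurons were lower in posterior cingulate cortex by -0.66 to -0.88. VSTM2A, a secreted immunoglobulin-domain protein, was 4.85, 6.72 and 8.44 RPKM against 11.0, 12.8 and 17.5 RPKM in the parietal libraries, without overlap, a difference of -0.88 ± 0.08 (adjusted p = 6.7e-06). NCALD, the calcium sensor neurocalcin delta, was 60.3, 82.0 and 122 RPKM against 116, 144 and 178 RPKM (-0.72 ± 0.07, adjusted p = 2.5e-05). SLC17A6, the vesicular glutamate transporter 2, was 0.65, 1.80 and 2.26 RPKM against 1.77, 3.90 and 5.21 RPKM (-0.82 ± 0.07, adjusted p = 4.1e-06). The ranges of the last pair of genes overlapped between regions, while the parietal library was higher in 8 of 8 sets. RORB, a nuclear receptor that marks layer 4, fell from 2.08, 4.40 and 5.57 RPKM in the parietal libraries to 1.61, 2.13 and 3.50 RPKM in the posterior cingulate (-0.66 ± 0.10, adjusted p = 0.0007). Of 3 layer 4 genes kept, it was the 1 gene called, beside 16.5% of all genes called lower. KCNIP2 (-0.08, adjusted p = 0.49) and COL6A1 (-0.17, adjusted p = 0.27) were not called. HIST1H4K was lower by -0.90, but histone genes of this family are near-identical and share reads, so its value is uncertain.

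The 10 genes lower by at least 1 formed a pattern of their own, described here after their values were seen. They were HOXA10 and IRX2, homeobox transcription factors, SPNS1, a lysosomal transporter, ELMSAN1, a member of a histone deacetylase complex, KLHL34, a kelch-like protein, CD300LG, an immunoglobulin-like receptor, NAIP, a sensor of the inflammasome, ESPNL, an espin-like actin binder, STARD13, and KCNU1, a potassium channel known from sperm. SPNS1 was 12.4, 20.3 and 40.8 RPKM in the posterior cingulate libraries and 39.7, 96.5 and 157 RPKM in the parietal libraries, a difference of -2.03 ± 0.16 (adjusted p = 4.1e-06). HOXA10 was 3.26, 5.90 and 11.9 RPKM against 12.8, 30.3 and 50.9 RPKM without overlap (-2.06 ± 0.15, adjusted p = 3.3e-06). The 8 others differed by -1.01 (KCNU1) to -2.01 (ELMSAN1), lower in 8 of 8 sets each.

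Within each region these genes went up and down together from library to library. With the region means taken out, each of the 9 others correlated with SPNS1 at r = 0.864 to 0.993 over the 16 libraries, which share their scaling and, in pairs, their animal set. The library of the 10-year females was the highest for 9 of the 10 genes in both regions, and the parietal library of the 1-year males the lowest for all 10. ARHGAP12, lower by -0.86, followed SPNS1 at r = 0.924. The same genes were variable elsewhere in the series: SPNS1 ran from 18.9 to 349 RPKM in the 8 CA1 libraries and from 9.75 to 23.9 RPKM in the 8 dentate gyrus libraries. The other 33 HOX genes in the table reached at most 2.23 RPKM in the 16 libraries, against 50.9 RPKM for HOXA10. Whether the reads counted for these genes came from their own transcripts was not tested, and the values are those the table lists under their names.

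**Figure D3:**
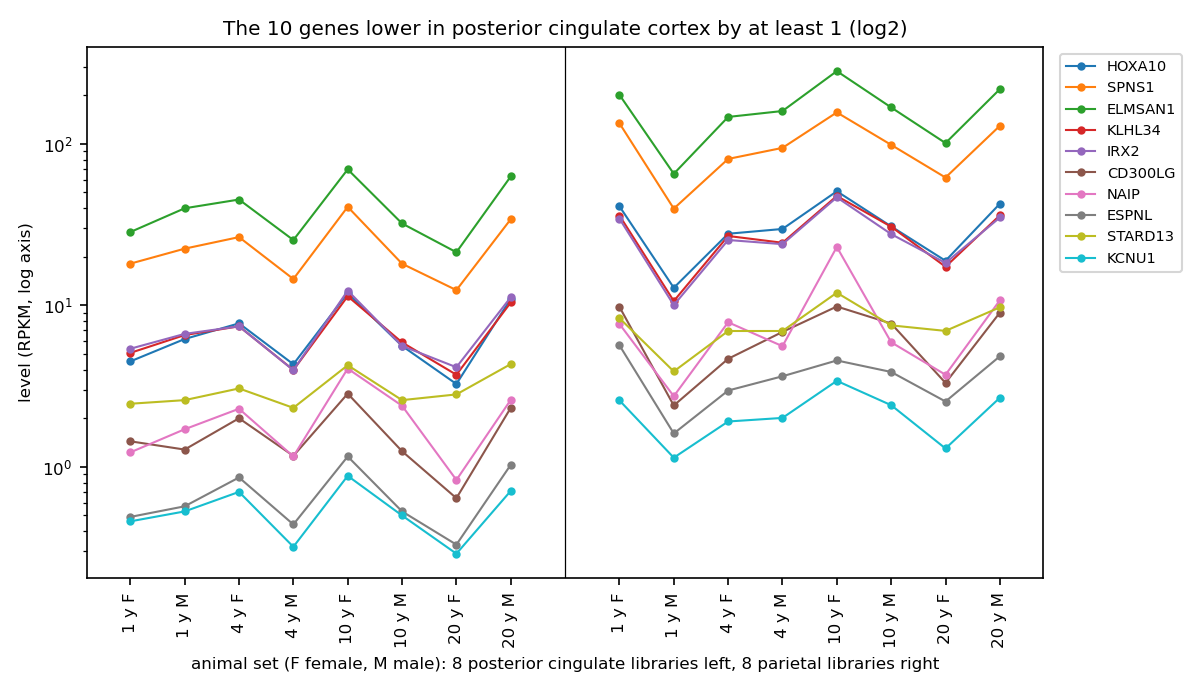
Level in RPKM (log axis) of the 10 genes lower by at least 1 in each posterior cingulate library (left) and parietal library (right), ordered by age and sex, 1 colour per gene. The lines run nearly in parallel, with the 10-year females high in both regions and the 1-year males low among the parietal libraries.

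Voltage-gated channel genes had no call in the higher direction in the deposited values, though 2 calcium channel genes had one under median-ratio scaling. Of 21 potassium channel genes 8 were lower, of 12 calcium channel genes 6 and of 10 sodium and HCN channel genes 4, beside 16.5% of all genes called lower, and their medians were -0.09, -0.20 and -0.18 beside -0.06. Under median-ratio scaling 4, 5 and 1 were lower (8.11% of all genes), and under quantile normalization 3, 2 and 1 (8.44% of all genes), shares nearer to the background. KCND2, the Kv4.2 subunit of the transient current in dendrites, was 2.05, 2.70 and 3.92 RPKM against 3.57, 4.52 and 4.86 RPKM (-0.51 ± 0.09, adjusted p = 0.002). KCNIP4, a partner of that channel, differed by -0.46 ± 0.09 (adjusted p = 0.0048) and KCNA1, the Kv1.1 subunit of axons, by -0.37 ± 0.07 (adjusted p = 0.0035). CACNA1E, the R-type calcium channel, was 1.26, 1.65 and 1.79 RPKM against 1.72, 2.52 and 4.66 RPKM (-0.48 ± 0.08, adjusted p = 0.0015). All 4 calls held under both other scalings.

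Transmitter receptor genes moved in both directions, beside 4.12% of all genes called higher and 16.5% called lower. The shares called lower among GABA and ionotropic glutamate receptor genes were near that of all genes. Under median-ratio scaling 10.1% of all genes were higher and 8.11% lower, and under quantile normalization 8.86% and 8.44%. Of 12 GABA receptor subunit genes, GABRA5, the alpha5 subunit of extrasynaptic receptors, was higher at 8.50, 14 and 25.2 RPKM against 6.06, 9.53 and 20.2 RPKM (0.46 ± 0.07, adjusted p = 0.00095). GABRB2, a beta subunit of the common synaptic receptors, was lower by -0.42 ± 0.07 and GABBR2, a GABA-B subunit, by -0.39 ± 0.08, and the list's median was -0.01. Of 6 metabotropic glutamate receptor genes, GRM2 (0.30 ± 0.06) and GRM3 (0.31 ± 0.05) were higher, and GRM5, GRM7 and GRM8 were lower by -0.25, -0.29 and -0.22, with a median of -0.17. The calls of GRM5 and GRM8 were lost without 2 and 5 of the sets (adjusted p up to 0.069 and 0.11), and under either other scaling 2 of the 6 genes were higher and 1 lower. Of 10 monoamine receptor genes, ADRA2C was higher (0.29 ± 0.07, adjusted p = 0.012), while DRD1, the D1 dopamine receptor, was lower by -0.40 ± 0.07, HTR5A by -0.33 ± 0.08 and ADRA1D by -0.54 ± 0.14. Of 13 ionotropic glutamate receptor genes, GRIA3 and GRIK1 were lower by -0.29 and -0.23, the second not without the 1-year females, the 1-year males or the 10-year males (adjusted p up to 0.066), and the median was -0.12. Under either other scaling 2 of the 13 were higher and 1 lower.

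Of 18 synaptic vesicle genes 5 were lower, beside 16.5% of all genes, and none was higher, with a median of -0.18. Under median-ratio scaling 3 were lower and 2 higher (8.11% and 10.1% of all genes), and under quantile normalization 5 were lower (8.44%). SV2B, a vesicle glycoprotein, was 15.4, 26.4 and 33.7 RPKM against 26.2, 32.8 and 44.6 RPKM (-0.39 ± 0.07, adjusted p = 0.0027). Of 16 postsynaptic scaffold genes, DLGAP1 (-0.45 ± 0.07, adjusted p = 0.00069), DLGAP2 (-0.38 ± 0.07) and NLGN1 (-0.23, adjusted p up to 0.067 without the 1-year males or a 10-year set) were lower and HOMER1 was higher, around a median of 0.03. The share of scaffold genes called lower was near the 16.5% of all genes, and 4.12% of all genes were higher. Under median-ratio scaling 4 of the 16 were higher and 2 lower (10.1% and 8.11% of all genes). After quantile normalization 2 were higher and 2 lower (8.86% and 8.44% of all genes). The call of HOMER1 (0.22, adjusted p = 0.029) was lost without the females of 1 or 10 years or the males of 4 or 10 years, with an adjusted p of up to 0.084.

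Layer and cell class markers of neurons changed gene by gene, beside 4.12% of all genes called higher and 16.5% called lower. Among excitatory neuron genes, SLC17A7 was higher (0.26 ± 0.07, adjusted p = 0.023, and 0.056 at most without 1 of the 10-year sets), and SLC17A6 and TBR1 were lower. The call of TBR1 was lost under quantile normalization. Of 8 deep layer genes, TSHZ2, a zinc finger homeobox factor, was lower at 0.55, 0.84 and 1.16 RPKM against 1.15, 1.54 and 1.94 RPKM (-0.48 ± 0.08, adjusted p = 0.0012), as were CRYM and TLE4, and none was called higher. The differences of 4 of the 8 were above 0 and those of the other 4 below, with a list median of -0.11. TLE4 lost its call under both other scalings and without 6 of the sets (adjusted p up to 0.10). Of 10 interneuron genes, VIP, the peptide of disinhibitory interneurons, was called, at 5.67, 6.86 and 7.07 RPKM against 8.04, 8.73 and 9.78 RPKM. Its groups did not overlap, and the difference was -0.34 ± 0.06 (adjusted p = 0.0022). SST and PVALB, which mark the other main interneuron classes, differed by 0.04 ± 0.07 and -0.04 ± 0.08 (adjusted p = 0.70 and 0.78). Among neuropeptides NPY was higher by 0.30 ± 0.07 (adjusted p = 0.011) and PDYN, prodynorphin, lower by -0.53 ± 0.13 (adjusted p = 0.011).

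Regional transcription factors and areal patterning genes moved in both directions. Of 18 kept, EMX2, LHX2 and LMO4 were higher and NR2F1, TSHZ3, EPHA7 and CDH8 lower, with a median of -0.02. Among all genes 4.12% were called higher and 16.5% lower. Under median-ratio scaling 6 of the 18 were higher and 2 lower (10.1% and 8.11% of all genes). After quantile normalization 5 were higher and 1 lower (8.86% and 8.44% of all genes). EMX2, a homeobox factor that patterns the cortex along its length, differed by 0.24 ± 0.05 (adjusted p = 0.0056). TSHZ3 was 1.21, 1.60 and 2.50 RPKM against 2.22, 2.64 and 3.37 RPKM (-0.48 ± 0.07, adjusted p = 0.00079). The calls of LHX2, LMO4, NR2F1, EPHA7 and CDH8 were each lost without 2 to 7 of the sets, with adjusted p up to 0.10, and the calls of NR2F1 and CDH8 also under both other scalings. RARB, a retinoic acid receptor, was lower by -0.46 ± 0.07 (adjusted p = 0.00055), in the same set of 10 retinoic acid pathway genes as RBP4.

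**Figure D4:**
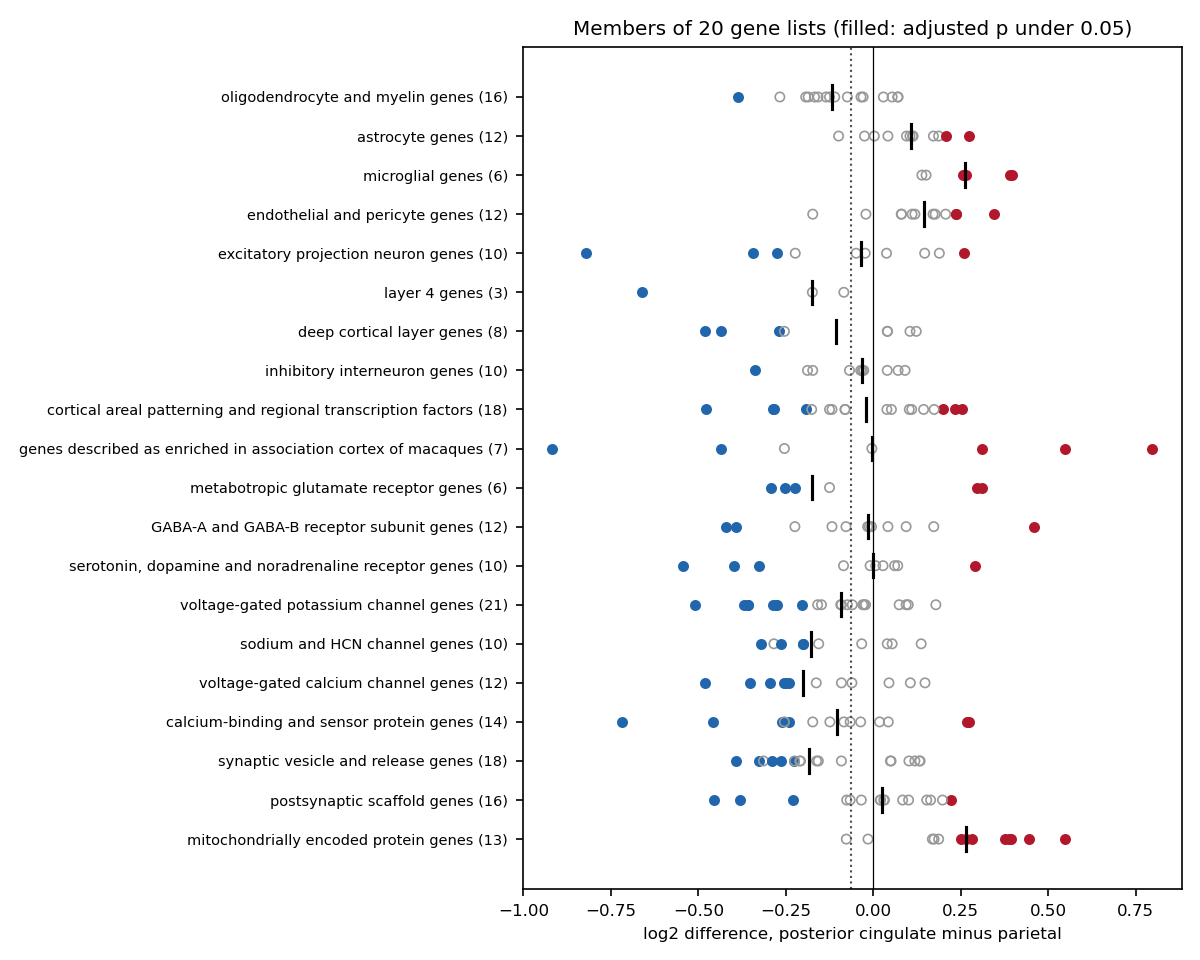
Log2 difference (x axis, posterior cingulate minus parietal) of each kept member of 20 gene lists, with the number of members in brackets; filled points were called, black bars are list medians and the dotted line is the median of all genes (-0.06). In these values, which are not rescaled, channel and vesicle genes have no filled red point, and microglial, astrocyte and vascular genes no filled blue point.

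Markers of microglia, astrocytes and vessels lay on the posterior cingulate side. Of 6 microglial genes kept 4 were higher (median 0.26), of 12 vascular genes 3 (median 0.15) and of 12 astrocyte genes 2 (median 0.11), beside 4.12% of all genes. Under median-ratio scaling 5, 5 and 7 were higher (10.1% of all genes), and under quantile normalization 5, 6 and 2 (8.86% of all genes). None was lower under any of the scalings. The call of CSF1R of microglia was lost without 5 of the sets (adjusted p up to 0.084). That of ALDOC of astrocytes was lost without the 1-year males (0.056). C1QC, a subunit of the complement starter C1q, was 22, 33.9 and 43.5 RPKM against 16.9, 23.7 and 30.8 RPKM (0.40 ± 0.08, adjusted p = 0.0033). TYROBP, the adaptor of microglial receptors, differed by 0.39 ± 0.07, ESAM, an endothelial adhesion molecule, by 0.34 ± 0.09 and RGS5, of pericytes, by 0.24 ± 0.05, each in 8 of 8 sets. S100B of astrocytes was higher by 0.27 ± 0.06, and so were APOE, the lipid carrier (0.28 ± 0.06), and B2M, the light chain of class I antigens (0.36 ± 0.06). The summed level of the microglial list was 71.6 to 113 RPKM against 64.5 to 94.6 RPKM and that of the vascular list 63.9 to 83.6 RPKM against 54.2 to 68.8 RPKM, higher in 8 of 8 sets for both. Of the defining microglial markers P2RY12 was listed at 0. HBB, the beta chain of haemoglobin, moved with them at 12.1, 16.3 and 22.6 RPKM against 5.97, 10.7 and 16.2 RPKM (0.62 ± 0.10, adjusted p = 0.00077), and so did ARHGDIB (0.43 ± 0.08). HBB was the 1 gene kept of 6 in the haemoglobin list. Of the others, HBA1, HBA2, HBM and ALAS2 reached at most 0.17, 0.08, 0.27 and 0.56 RPKM. The animals had been bled before the brain was taken, per the labels' protocols, and the part of remaining blood in these results was not tested.

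Of 16 oligodendrocyte genes kept, CLDN11, a tight junction protein of myelin, was the 1 gene called (-0.39 ± 0.08, adjusted p = 0.0055). Among all genes 16.5% were called lower and 4.12% higher. The median of the list was -0.12 beside -0.06 over all genes. MBP, myelin basic protein, was 391 to 1265 RPKM in the posterior cingulate and 237 to 1232 RPKM in the parietal libraries (0.07 ± 0.12, adjusted p = 0.70). TTR, the main product of the choroid plexus, was lower in posterior cingulate cortex (0.43 to 8.34 RPKM against 2.28 to 11.5 RPKM, -0.60 ± 0.15, adjusted p = 0.015), while CLIC6 (0.43 ± 0.16, adjusted p = 0.067) and KCNE2 (0.17 ± 0.09, adjusted p = 0.20), the other kept genes of that list, had positive differences, CLIC6 being called under both other scalings. FOLR1 and OTX2 of the same tissue reached at most 0.31 and 0.04 RPKM.

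Transcripts of the mitochondrial genome were higher in posterior cingulate cortex in the deposited values and under median-ratio scaling, but not under quantile normalization. Of 13 protein genes 8 were called higher and none lower, with a median of 0.27. Among all genes 4.12% were higher and 16.5% lower, 10.1% and 8.11% under median-ratio scaling and 8.86% and 8.44% under quantile normalization. The share of the 13 genes in total RPKM was 24.9% to 31.2% against 22.3% to 27.0%, higher in 8 of 8 sets. ND3, a subunit of complex I, was 5521, 8820 and 12867 RPKM against 4286, 5718 and 8925 RPKM (0.55 ± 0.05, adjusted p = 1.8e-05), and COXII, a subunit of cytochrome c oxidase, differed by 0.45 ± 0.05. Median-ratio scaling gave a list median of 0.35, with 10 genes higher and none lower. Under quantile normalization the list's median was -0.04, with 2 genes higher and 1 lower. That method gives equal ranks equal values, and genes such as ND3 and COXII rank high in every library, so it cannot decide the list's direction. Of 16 nuclear genes of the respiratory chain, none was higher and 2 were lower in the deposited values (median -0.04), 3 were higher and none lower under median-ratio scaling (0.04), and 2 were higher and 1 lower under quantile normalization (-0.02).

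Ageing was followed over both regions at once, from the mean of the 2 libraries of each set, as the slope of the log2 level per doubling of age. Slopes were called for 1849 genes (16.5%), 1425 rising (12.7%) and 424 falling (3.79%), beside a median slope of 0.03 over all genes. After median-ratio scaling 818 rose and 950 fell. Without the 1-year males 386 genes were called, without the 1-year females 650, without the 20-year females 893 and without the 10-year males 1206.

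Myelin genes rose with age in posterior cingulate and parietal cortex. All 16 oligodendrocyte genes kept were called as rising (median slope 0.30), and 14 of them under median-ratio scaling. Among all 11179 genes 12.7% were called as rising, and under median-ratio scaling 818 genes were. MBP was 237 to 405 RPKM over the 4 libraries of 1 year and 974 to 1265 RPKM over the 4 libraries of 20 years, a slope of 0.40 ± 0.04 (adjusted p = 0.00019). ERMN, a cytoskeletal protein of myelin, and GJB1, a connexin of oligodendrocytes, rose by 0.47 and 0.48 per doubling. Of 8 genes listed for large layer 5 projection neurons 6 rose too, beside 12.7% of all genes, and 6 also under median-ratio scaling. Which cells these rises came from was not tested. VAMP1, a vesicle protein of fast synapses, was 3.62 to 4.16 RPKM at 1 year and 18.9 to 27.4 RPKM at 20 years (0.53 ± 0.04, adjusted p = 2.2e-05). KCNS1, a modifying potassium channel subunit, and NEFH, the heavy neurofilament, rose by 0.50 and 0.52. PVALB rose by 0.28 ± 0.04 (adjusted p = 0.0016) and GFAP of astrocytes by 0.32 ± 0.04 (adjusted p = 0.00053). LTB, lymphotoxin beta, had the steepest rise of a named gene, at 0.62.

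Among falling genes, MEIS3 went from 40.9 to 47.8 RPKM at 1 year to 5.46 to 12.2 RPKM at 20 years (-0.57 ± 0.05, adjusted p = 2.8e-05), without overlap between these ages. NPPA, a natriuretic peptide, fell by 0.65 and GPR26 by 0.46 per doubling. CALB1, the calcium buffer calbindin, was 28.6 to 39.9 RPKM at 1 year and 8.63 to 11.6 RPKM at 20 years (-0.37 ± 0.03, adjusted p = 2.2e-05). Immediate early genes are induced within minutes by neuronal activity, and of 11 kept ARC, EGR1, EGR2 and NR4A1 fell and FOSB rose. Among all genes 3.79% were called as falling and 12.7% as rising. Without the 1-year females all but ARC of these lost their calls (adjusted p of 0.079 for EGR1, 0.087 for EGR2, 0.16 for NR4A1 and 0.10 for FOSB), without the 1-year males EGR1, EGR2 and NR4A1 (0.14, 0.12 and 0.14), and without the 20-year females NR4A1 (0.053). ARC was 16.8 to 29.3 RPKM at 1 year and 5.04 to 8.38 RPKM over the 12 libraries of 4 to 20 years. None of the 11 was called for a difference between the regions, beside 20.6% of all genes.

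**Figure D5:**
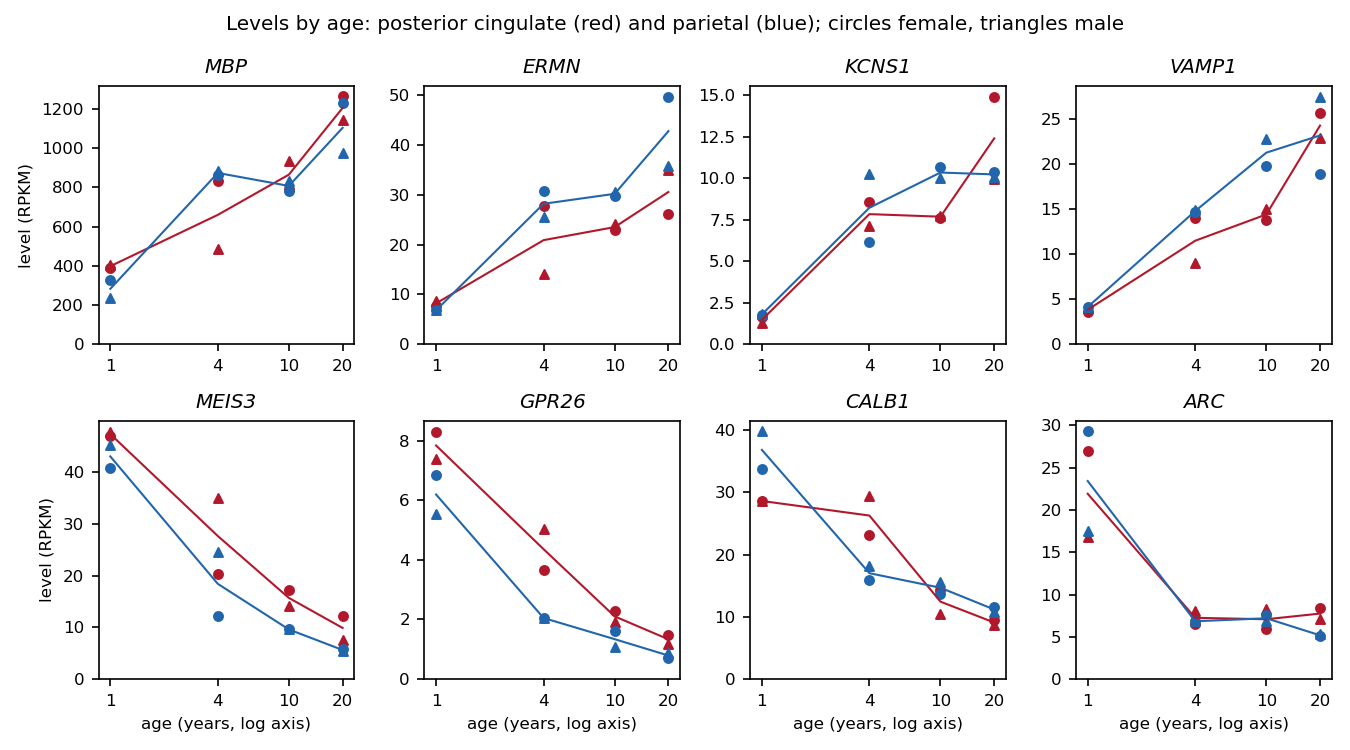
Level in RPKM of 8 genes against age in years (log axis) in posterior cingulate (red) and parietal cortex (blue), with circles for females, triangles for males and lines through the mean of both. MBP, ERMN, KCNS1 and VAMP1 rise and MEIS3, GPR26, CALB1 and ARC fall in both regions.

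The regional difference itself was then tested against age and sex on the 8 paired differences. No gene was called by limma for a change of the difference with age (0%), with 1216 genes at an unadjusted p under 0.05, 906 of them with a difference that rose. No gene was called for a change with sex (0%), with 210 at an unadjusted p under 0.05. The smallest p for age belonged to SNORD115, a small nucleolar RNA with several copies in the table, BAIAP2, a scaffold of dendritic spines, and HMGN5, a nucleosome-binding protein, each at an adjusted p of 0.30. The difference of BAIAP2 was -0.56 in females and -0.96 in males of 1 year and 0.43 and 0.00 at 20 years. That of HMGN5 was 0.13 and -0.07 at 1 year and -0.66 and -0.73 at 20 years. For sex they belonged to a copy of SNORD113, RASD2, a small GTPase of the striatum, and CCDC48, with adjusted p of 0.89 to 1.00. MEIS3 and GPR26 combined both effects: both were higher in posterior cingulate cortex and fell with age, with slopes of -0.50 and -0.45 there and -0.63 and -0.46 in parietal cortex.

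Females and males differed over both regions in 1 gene of 11179 (0.00895%), with 276 at an unadjusted p under 0.05. It carries no name in the sources used here, was 2.68 to 4.80 RPKM in males and at most 0.05 RPKM in females, and differed by 2.16 on the log2 scale (adjusted p = 2.5e-08). No gene carried the name XIST, UTY, DDX3Y, KDM5D, USP9Y, RPS4Y1 or ZFY, so these sex-linked genes could not be tested by name. EIF1AY and RPS4Y2 were kept and not called for sex.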

How the data were processed

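The authors deposited RPKM values of 26654 genes in 64 libraries. Per the submitters' processing notes, TopHat2, Cufflinks 2.2 and edgeR were used, with no role stated. Build, annotation and counting: not given in the sources used here. Genes with at least 1 RPKM in 8 or more of the 16 libraries were kept: 11179, of which 10070 carried a symbol, 343 were named through an identifier table and 766 had no name. Where several rows share a symbol, the row with the highest mean is given. The depth of each library is unknown, and the step described above does not fix it.

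Tests used R 4.3.3 with limma 3.58.1 (empirical Bayes with intensity trend, two-sided) on log2(RPKM + 1), tables read with data.table (version 1.17.8), with animal set as a fixed block for region, and slopes on log2 age with sex as covariate over 8 paired differences or 8 means. The fits were tested on simulated data. Figures used Python 3.11.15 and matplotlib 3.10.9. P-values measure the spread between animal sets; separate animals behind the libraries of a set are not stated.

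Libraries of both regions of a set deviated together from the region means (correlation 0.255 to 0.703, and 0.129 to 0.561 with age and sex taken out; 8 of 8 sets above 0.1). No libraries were identical.

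The comparison, the gene lists and the alternatives were chosen with earlier results of these data known. Genes named by rule were the 14 with a symbol and the largest difference in each direction among those called and alike in all 8 sets, 8 per direction for age and sex, and the 3 of smallest p where no interaction was called; other named genes are list members.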

Additional observations from a re-analysis of the deposited data

Results flagged for a closer look

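Of 286 groups of 8 libraries tested (143 genes in 2 regions), 17 held 1 library whose distance from the nearest other library was large for the range of its group (Dixon's criterion); chance flags about 1 in 20 groups. In the 1-year males IGFBP3, an insulin-like growth factor binding protein, stood at 24.9 RPKM in the posterior cingulate and 22.7 RPKM in the parietal library, HOMER1 stood at 108 and 97.0 RPKM, and GRM8 was low in the posterior cingulate library (0.76 RPKM). The parietal library of the 1-year females was high for CNIH2 (25.0 RPKM), ADRA1D (6.21 RPKM), GRM3 (44.0 RPKM) and GABRA5 (20.2 RPKM). The parietal library of the 10-year females was high for CACNA1E (4.66 RPKM), NAIP (23.0 RPKM) and ATP8 (4950 RPKM). Among 20-year females, B2M in parietal cortex (429 RPKM) and ALDOC in posterior cingulate cortex (425 RPKM) were high and VIP in posterior cingulate cortex (5.67 RPKM) was low. In the posterior cingulate library of the 4-year males FKBP1B (57.0 RPKM) and CDH8 (7.20 RPKM) were high.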

How the results depend on the processing

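No called value reversed its direction. Of 43 list medians, 16 changed sign under median-ratio scaling, all to positive, and 10 under quantile normalization, 9 of them to positive and that of mitochondrial genes to -0.04. At a mean of 5 RPKM, which leaves fewer members, medians turned positive for calcium channel (0.04), metabotropic glutamate receptor (0.31) and association cortex genes (0.31). The 2306 regional calls became 458 with no replicate block, 1296 with no filter on low values, 1447 under a filter at a mean of 5 RPKM, and 1334 to 2508 when 1 animal set was left out. The 11 calls of at least 1 became 31 with a pseudocount of 0.1 and 10 to 14 with a set left out. Calls of a regional difference that changes with age ran from 0 to 2 with a set left out, age calls were 848 with no filter and 386 to 2485 with a set left out, and sex calls were 0 under the 5 RPKM filter and 1 to 3 with a set left out. Fitting the block to 40 or 64 libraries gave 1655 and 2100 regional calls. Of the alternative values of named regional differences, 1635 stayed on the same side of the threshold, 308 lost and 14 gained the call; of age slopes 279 stayed and 13 lost it. The cause of these changes was not tested. With reads per gene not used, counting error is unknown for low genes such as MET and KCNU1, and values have 2 decimals.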
